A study of Oryza sativa with 12 samples.

Results

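The genes described here are the silicon and arsenite transporters of rice and its ACR2-type arsenate reductases. A gene was included when a probe set assigned to it alone carried one of 5 names, either as its symbol or as a synonym: Lsi2, OsNIP2;1 (also called Lsi1), OsNIP2;2 (also called Lsi6), OsACR2.1 and OsACR2.2. All 5 names were found, each with 1 probe set, among 17905 genes with such a probe set, and all 5 passed the filter on low signal. The study measured root RNA of Bala and Azucena, rice (Oryza sativa) varieties whose cross has been used to map tolerance of arsenate, on Affymetrix rice genome arrays. There were 4 groups of 3 arrays: Bala with 1 ppm (13.3 uM) arsenate, Bala without arsenate (0 ppm, control), Azucena with 1 ppm arsenate and Azucena without arsenate. All plants were seedlings kept in hydroponic culture for 7 days, and each sample was a pool of root from 4 plants that shared a pot. The spread between the arrays of a group is thus a spread between pots of different experiments, and not between plants. Each of 3 separately grown experiments gave 1 array to every group, harvested together, and the experiment number is used below to name the arrays.

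Rice takes up silicon as silicic acid along a path of polarised membrane proteins. Lsi1 is a channel of the NIP aquaporin family on the outer face of the exodermis and endodermis, and Lsi2 is an exporter on the inner face of the same cell layers. Arsenite, which resembles silicic acid in size and charge, enters by Lsi1 and leaves towards the xylem by Lsi2, and plants that lack Lsi2 carry less arsenic in the shoot and grain. Lsi6, a close relative of Lsi1, unloads silicic acid from the xylem in leaves and nodes and is also made near root tips. Arsenate, the form given here, enters instead by phosphate transporters and is reduced to arsenite inside the cell. OsACR2.1 and OsACR2.2 are relatives of the CDC25 phosphatases that reduce arsenate when tested outside the plant.

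The annotation gives the genes as LOC4331328 for Lsi2, LOC4330713 for OsNIP2;1, LOC4340558 for OsNIP2;2, LOC4349283 for OsACR2.1 and LOC4331335 for OsACR2.2. The probe set of OsNIP2;2 is named with the ending "_x_at", which means, in Affymetrix naming, that some of its probes may also bind other transcripts. Signals are MAS5 values on a linear scale as deposited, and a signal is compared only with signals of the same probe set. Whether the probes bind the transcripts of Bala and Azucena alike was not tested, which limits every comparison of signal between the varieties. Log2 differences are on the scale of log2(signal + 2.1), and adjusted p values come from limma over 28461 probe sets with the Benjamini-Hochberg method, at a threshold of 0.05.

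Some arrays differed in ways that the group labels do not name. The summed signal of the 3 green shoot marker genes measured (RBCS, CAB2R and OsGLK1, of 8 listed) was 88.5 to 2890 in Bala with arsenate and 794 to 2907 in Bala control, against 56.2 to 81.2 in Azucena with arsenate and 99.2 to 1831 in Azucena control. All Bala control arrays were high. In Bala with arsenate and in Azucena control 1 array each, both of experiment 3, was far above the others of its group (2890 and 1831, against at most 215 and 133), so results below are also given without those 2 arrays and without all of experiment 3, which also held the highest Bala control sum (2907). The ratio of the 3' to the 5' control probe set of GAPDH, a sign of RNA or cDNA shortening, was 3.53 to 3.78 in Bala with arsenate and 1.43 to 2.17 in Bala control, against 8.86 to 23.8 in Azucena with arsenate and 7.58 to 8.60 in Azucena control. This ratio was higher with arsenate in both varieties and higher in Azucena than in Bala. The ratio of actin was 6.82 to 8.59 in Bala with arsenate and 2.54 to 3.66 in Bala control, against 5.15 to 8.45 in Azucena with arsenate and 2.24 to 6.87 in Azucena control. That of cyclophilin was 2.08 to 2.90 in Bala with arsenate and 1.88 to 2.44 in Bala control, against 2.46 to 3.23 in Azucena with arsenate and 2.08 to 2.54 in Azucena control, so that the varieties overlapped on both of these genes. Of 5 root markers only OsNRT2.3 was measured and of 3 root hair markers none, so the labelled tissue could be checked only in part. Array medians lay between 7.3 and 10.4.

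**Figure D1:**
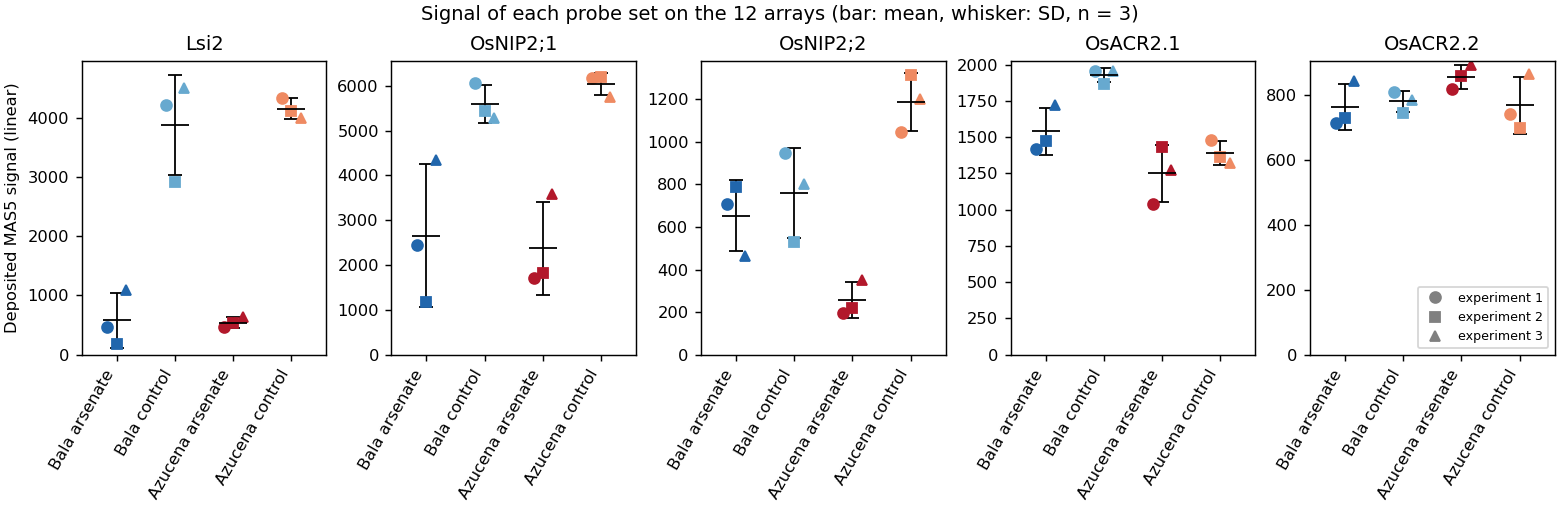
Deposited MAS5 signal (linear axis from 0, a separate scale for each gene) of the 5 probe sets on the 12 arrays, by group, with the symbol giving the experiment, the bar the mean and the whisker the SD (n = 3). Lsi2 lies at 178 to 1087 in Bala with arsenate and 459 to 639 in Azucena with arsenate, against 2908 to 4500 and 3991 to 4336 in the controls of the same varieties, whereas the OsACR2.2 groups lie between 697 and 892.

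Lsi2, the arsenite and silicic acid exporter, was lower with arsenate in both varieties, and OsNIP2;1 and OsNIP2;2, the channels, were lower in Azucena. Neither reductase passed the test in either variety. In Azucena 3 of the 5 genes were called lower, where 10.3% of all tested probe sets were lower and 10.7% higher. In Bala 1 of the 5, Lsi2, was called lower, where 5.68% of all tested probe sets were lower and 6.19% higher. The median log2 change of the 5 was -0.33 in Bala and -1.43 in Azucena, against 0.06 and 0.10 over all tested probe sets of the same variety. These arrays carry RNA of whole root tissue, in which fewer cells of a type and less RNA per cell cannot be told apart.

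Lsi2 was the gene that changed most of the 5. In Bala its signal with arsenate was 467.1, 177.6 and 1086.9 in experiments 1, 2 and 3, against 4211.1, 2908.3 and 4500.3 in control roots of the same experiments. In Azucena the signal with arsenate was 458.5, 527.4 and 638.8, against 4335.9, 4116.1 and 3990.7 in control. Every arsenate array was below every control array, of either variety. Bala averaged 577 ± 465 with arsenate, against 3873 ± 848 in control, which is 14.9% of control or 6.71-fold lower (SD, n = 3 each). Azucena averaged 542 ± 91.0 with arsenate, against 4148 ± 175 in control, which is 13.1% or 7.66-fold lower (SD, n = 3 each).

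The fitted log2 change of Lsi2 was -3.08 ± 0.43 in Bala (SE, limma adjusted p = 0.0034) and -2.94 ± 0.43 in Azucena (adjusted p = 0.0028). These changes stood at percentile 0.423 in Bala and 1.04 in Azucena of the changes of all tested probe sets. Within the experiments the log2 change was -3.17, -4.02 and -2.05 in Bala and -3.24, -2.96 and -2.64 in Azucena, so that the gene was lower in 6 of 6 pairs. Bala spread more widely than Azucena, with the deepest change in experiment 2 and the shallowest in experiment 3. In experiment 3 the green marker sum of Bala was alike with arsenate (2890) and in control (2907). The Azucena change was also shallowest in experiment 3, where the sum was 56.2 with arsenate and 1831 in control. A link between this sum and Lsi2 was not tested. Without experiment 1 both calls were lost, at adjusted p = 0.0783 in Bala and 0.0695 in Azucena, with log2 changes of -3.03 and -2.80. Without the Bala arsenate and Azucena control arrays of experiment 3 the changes were -3.59 in Bala (adjusted p = 0.0046) and -3.10 in Azucena (adjusted p = 0.0057), and without all of experiment 3 they were -3.59 (0.0088) and -3.10 (0.0090).

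The changes of Lsi2 in the varieties differed by -0.13 ± 0.61 (Bala minus Azucena, limma adjusted p = 0.968), with a 95% interval of -1.53 to 1.26. Differences in either direction of more than a log2 unit thus lie inside the interval. In group order Azucena control was highest, followed by Bala control, Bala with arsenate and Azucena with arsenate, and the ranges of Bala control and Bala with arsenate were the only neighbours in that order that did not overlap.

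OsNIP2;1 (Lsi1), the channel through which silicic acid and arsenite enter the root, was lower with arsenate than in the matching control in every experiment and variety. In Bala the signal with arsenate was 2443.2, 1174.3 and 4348.2, against 6062.5, 5439.4 and 5271.1 in control. In Azucena it was 1717.8, 1830.8 and 3574.2 with arsenate, against 6175.3, 6192.0 and 5755.3 in control. The arsenate and control ranges did not overlap in either variety, and in both varieties the arsenate array of experiment 3 was the one nearest to control. The Bala mean was 2655 ± 1598 with arsenate, against 5591 ± 417 in control, which is 47.5% of control. The Azucena mean was 2374 ± 1041 with arsenate, against 6041 ± 247 in control, which is 39.3% of control (SD, n = 3 each).

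The fitted log2 change of OsNIP2;1 was -1.27 ± 0.37 in Bala, where it did not pass the test (SE, limma adjusted p = 0.0608, 95% interval -2.11 to -0.42). In Azucena it was -1.43 ± 0.37 and passed (adjusted p = 0.0281). By experiment the change was -1.31, -2.21 and -0.28 in Bala and -1.84, -1.76 and -0.69 in Azucena. The Bala value passed under 5 other settings of the fit, at adjusted p between 0.0319 and 0.0459, and without the Bala arsenate array of experiment 3 (adjusted p = 0.0373) or all of experiment 3 (0.0300). The Azucena call was lost when any one array of experiment 1 or 2 in that variety was left out (adjusted p between 0.0849 and 0.119), without experiment 1 (0.242) or experiment 2 (0.148), and with no filter on low signals (0.0738). The changes in the varieties differed by 0.16 ± 0.53 (Bala minus Azucena, adjusted p = 0.952). A call in one variety and not in the other therefore does not part the varieties for this gene. In group order the controls, which overlapped, were above Bala and Azucena with arsenate, which also overlapped.

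OsNIP2;2 (Lsi6), the channel known from xylem unloading, was lower with arsenate in Azucena and did not pass the test in Bala. In Bala the signal with arsenate was 708.2, 785.4 and 465.1, against 946.1, 531.5 and 802.8 in control. In Azucena it was 195.7, 220.4 and 351.9 with arsenate, against 1045.2, 1312.8 and 1202.7 in control. The Bala groups overlapped, and in experiment 2 the arsenate array was the higher one, whereas the Azucena groups lay far apart. Mean signals in Bala were 653 ± 167 with arsenate and 760 ± 211 in control, or 85.9% of control. Mean signals in Azucena were 256 ± 84.0 with arsenate and 1187 ± 134 in control, or 21.6% of control (SD, n = 3 each).

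The fitted log2 change of OsNIP2;2 was -0.21 ± 0.32 in Bala (SE, limma adjusted p = 0.708, 95% interval -0.95 to 0.52) and -2.24 ± 0.32 in Azucena (adjusted p = 0.0026). By experiment it was -0.42, 0.56 and -0.78 in Bala and -2.40, -2.56 and -1.77 in Azucena. The Azucena call was lost without experiment 2 (adjusted p = 0.0533, log2 change -2.09). Without the Bala arsenate and Azucena control arrays of experiment 3 the change was 0.17 in Bala (adjusted p = 0.802) and -2.39 in Azucena (adjusted p = 0.0083), and without all of experiment 3 it was 0.07 (0.911) and -2.48 (0.0094).

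The changes of OsNIP2;2 in the varieties differed by 2.03 ± 0.46 (Bala minus Azucena), with a 95% interval of 1.00 to 3.07, and the change in Bala was the higher one in all 3 experiments, by 1.99, 3.12 and 0.98. The difference did not pass the test over all probe sets (limma adjusted p = 0.141), a test that 0.0914% of probe sets passed (26 of 28461). Of the 5 genes it was the 1 with an unadjusted limma p under 0.05 for this difference, and it stood at percentile 98.7 of the differences of all tested probe sets. The share of all tested probe sets with an unadjusted p under 0.05 was not counted, so that count has no background to be read against. The varieties were also compared within each treatment. With arsenate OsNIP2;2 was higher in Bala than in Azucena by 1.36 ± 0.32 (adjusted p = 0.0239, 95% interval 0.62 to 2.09), a ratio of mean signals of 2.55, with no overlap between the groups. It was the only gene of the 5 called in that comparison, where 5.54% of probe sets were called higher in Bala.

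That call depended on single arrays. It was lost without any one of the arsenate arrays of experiments 1 and 2, with adjusted p between 0.0991 and 0.111, and without all of experiment 1 (0.224) or experiment 2 (0.218). It was also lost with no filter on low signals (0.0643) and with only those 2 groups in the fit (0.105). By experiment the difference with arsenate was 1.84, 1.82 and 0.40, so that Bala was higher in 3 of 3. In control roots the mean of OsNIP2;2 was 1.56-fold lower in Bala than in Azucena, with no overlap, and the fitted difference of -0.68 ± 0.32 did not pass (adjusted p = 0.231). Azucena control was thus highest in group order and Azucena with arsenate lowest, and neither overlapped with its neighbour, whereas the intermediate groups, Bala control and Bala with arsenate, overlapped.

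**Figure D2:**
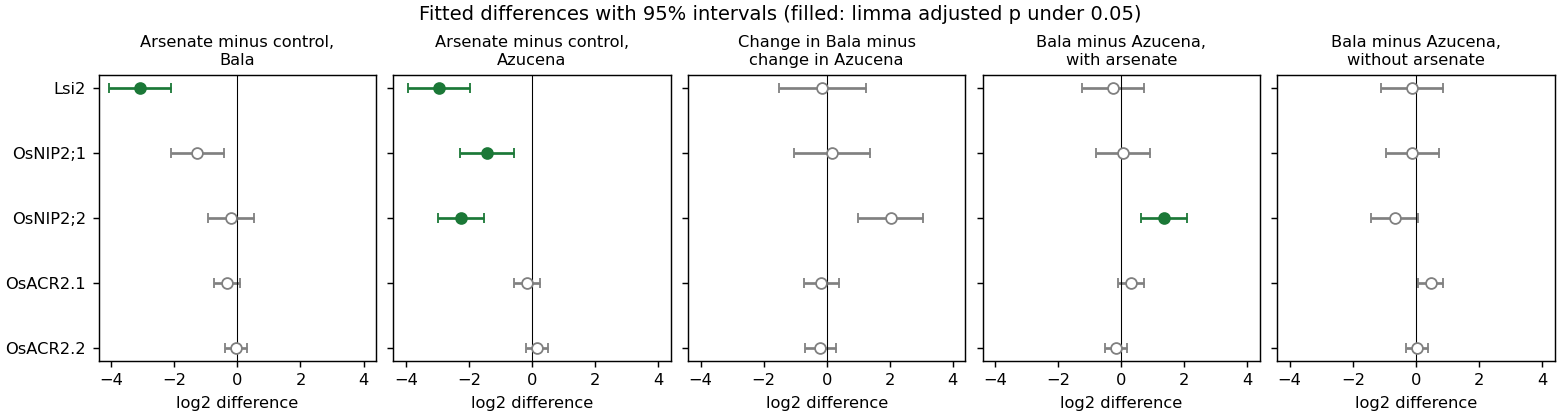
Fitted log2 differences (dots) with 95% intervals (whiskers) of the 5 genes in 5 comparisons, filled where the limma adjusted p was under 0.05. Lsi2 is filled in both arsenate panels (-3.08 in Bala, -2.94 in Azucena), OsNIP2;1 in the Azucena panel, and OsNIP2;2 in the Azucena panel (-2.24) and in the panel of Bala minus Azucena with arsenate (1.36).

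OsACR2.1, an arsenate reductase, passed the test in neither variety and in no comparison between them. In Bala the signal with arsenate was 1421.4, 1475.1 and 1723.7, against 1958.4, 1870.4 and 1956.2 in control. In Azucena it was 1041.9, 1436.0 and 1274.2 with arsenate, against 1481.3, 1361.8 and 1324.4 in control. The Bala groups did not overlap, which is a description and not a call, and the Azucena groups did. Bala means were 1540 ± 161 with arsenate and 1928 ± 50.2 in control, or 79.9% of control. Azucena means were 1251 ± 198 with arsenate and 1389 ± 82.0 in control, or 90.0% of control (SD, n = 3 each).

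Neither change of OsACR2.1 passed the test: the log2 change was -0.33 ± 0.18 in Bala (limma adjusted p = 0.262, 95% interval -0.73 to 0.07) and -0.16 ± 0.18 in Azucena (adjusted p = 0.543, interval -0.56 to 0.24). A decrease of 0.5 log2 units lies inside both intervals. In control roots the mean signal in Bala was 1.39 times that in Azucena, with no overlap and a higher Bala array in 3 of 3 experiments. This difference of 0.47 ± 0.18 did not pass the test (adjusted p = 0.124, interval 0.07 to 0.87), in a comparison where 13.8% of probe sets differed between the varieties. In group order Bala control was highest and stood clear of the next group, Bala with arsenate, which overlapped with Azucena control. The difference in control roots passed when the prior variance was fitted as a trend with robust estimation (adjusted p = 0.0386).

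OsACR2.2, the other reductase, had group means within a narrow span, from 763 to 856. In Bala the signal with arsenate was 714.7, 730.2 and 844.0, against 810.3, 745.0 and 784.6 in control. In Azucena it was 817.0, 858.9 and 891.8 with arsenate, against 739.8, 697.1 and 865.3 in control. The arsenate and control ranges overlapped in both varieties. Means were 763 ± 70.6 with arsenate and 780 ± 32.9 in control in Bala, and 856 ± 37.5 with arsenate and 767 ± 87.4 in control in Azucena (SD, n = 3 each).

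The log2 change of OsACR2.2 was -0.03 ± 0.15 in Bala (limma adjusted p = 0.906, 95% interval -0.38 to 0.31) and 0.16 ± 0.15 in Azucena (adjusted p = 0.477, interval -0.18 to 0.51). Both intervals lie between -0.38 and 0.51. In group order Azucena with arsenate was highest and did not overlap with the next group, Bala control, while Bala control, Azucena control and Bala with arsenate overlapped. Between the varieties the fitted difference was -0.17 with arsenate (adjusted p = 0.550) and 0.03 without.

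Averaged over the varieties, 3 of the 5 genes were lower with arsenate, where 14.5% of all tested probe sets were called lower. Lsi2 fell by 3.01 ± 0.31 on the log2 scale (limma adjusted p = 0.0003), OsNIP2;1 by 1.35 ± 0.26 (adjusted p = 0.0057) and OsNIP2;2 by 1.23 ± 0.23 (adjusted p = 0.0044). The average for OsNIP2;2 joins a large decrease in Azucena with a small and uneven change in Bala. Without experiment 1 only Lsi2 passed, since OsNIP2;1 (adjusted p = 0.0908) and OsNIP2;2 (0.0584) did not, and without experiment 2 OsNIP2;1 did not (0.0687). The reductases did not pass (OsACR2.1 -0.25 ± 0.12, adjusted p = 0.165; OsACR2.2 0.06 ± 0.11, adjusted p = 0.684).

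**Figure D3:**
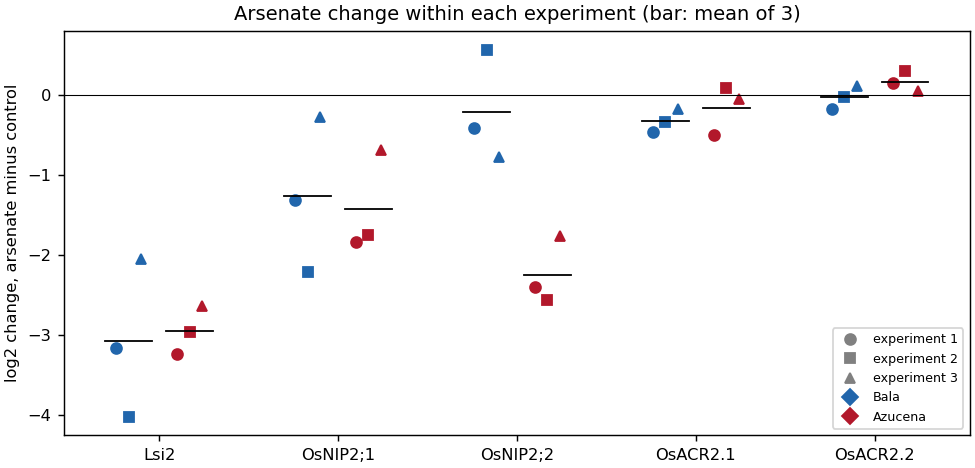
Log2 change of the 5 genes within each experiment (arsenate minus control of the same experiment and variety), Bala left of Azucena, with the symbol giving the experiment and the bar the mean of 3. All 6 changes of Lsi2 lie at or below -2.05, the changes of OsNIP2;1 run from -2.21 to -0.28, OsNIP2;2 parts by variety, and the reductases lie between -0.51 and 0.30.

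The transporters' changes were set against one another within each experiment and variety. The change of Lsi2 was deeper than that of OsNIP2;1 in 6 of 6 pairs, by 1.20 to 1.95 log2 units, with a mean difference of -1.66 ± 0.30 (SD, n = 6; exact two-sided sign-flip permutation test p = 0.03125, the smallest that 6 pairs allow; 0.0469 adjusted over the 3 gene pairs). Lsi2 also changed more than OsNIP2;2 in 6 of 6, by a mean of -1.78 ± 1.59 and over a wide range of -4.58 to -0.40 (the same exact p and adjusted p). The gap was wide in Bala (mean log2 changes of -3.08 for Lsi2 and -0.21 for OsNIP2;2) and narrower in Azucena (-2.94 and -2.24). OsNIP2;1 and OsNIP2;2 differed by -0.12 ± 1.47, with the sign below 0 in 2 of 6 (exact p = 0.906). In Azucena OsNIP2;2 fell more than OsNIP2;1 in every experiment (-2.40, -2.56 and -1.77, against -1.84, -1.76 and -0.69). In Bala OsNIP2;1 fell more in experiments 1 and 2 (-1.31 and -2.21, against -0.42 and 0.56) and less in experiment 3 (-0.28, against -0.78). The pooled mean thus joins opposite differences and does not show that the channels changed alike. The differences between Lsi2 and OsNIP2;1 were even across the experiments: where one gene fell less, as in experiment 3, so did the other. These changes come from different probe sets, and whether the probe sets respond alike to a change in RNA was not tested. The control signals of OsNIP2;1 (5271.1 to 6192.0) lay not far below the highest signals of the control arrays (6999.6 to 10163.2). The 6 pairs are the varieties within 3 experiments, grown and harvested together, and the test treats them as independent. With the varieties averaged within each experiment the mean differences were the same, Lsi2 changed more than either channel in 3 of 3 experiments, and the exact test of both pairs gave p = 0.25, the smallest that 3 values allow.

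The size of the response over many genes was compared between the experiments. Over the probe sets called lower in each variety, the median log2 change in experiments 1, 2 and 3 was -1.47, -1.34 and -1.37 in Bala and -1.65, -1.43 and -1.18 in Azucena. These probe sets were called from the same 3 experiments, which favours even changes across them. The medians are therefore a description and not an independent measure of each experiment. OsNIP2;1 changed in experiment 3 by -0.28 in Bala and -0.69 in Azucena, less than in the other experiments of the same variety.

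**Figure D4:**
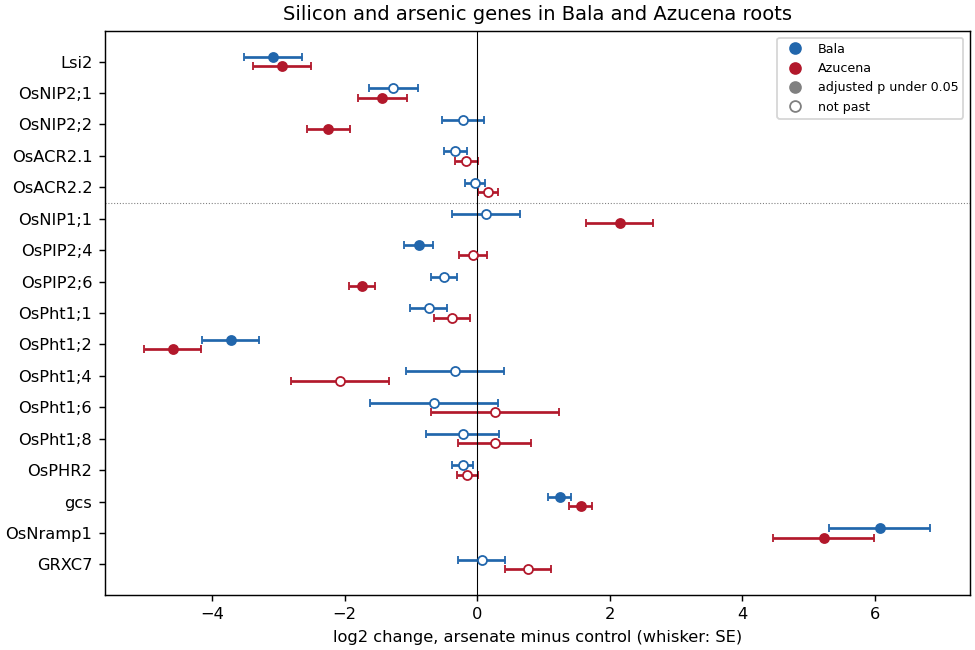
Log2 change with arsenate (dot, with the SE as whisker) in Bala and Azucena of the 5 genes above the dotted line and of 12 other genes of arsenic and silicon transport below it, filled where the limma adjusted p was under 0.05. OsNramp1 and gcs are filled on the right in both varieties and OsPht1;2 on the left in both, while OsNIP1;1 and OsPIP2;6 are filled in Azucena and OsPIP2;4 in Bala.

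Other genes of arsenic and silicon transport were taken from a list of 37 symbols, of which 15 had a probe set and 12 passed the filter on low signal. In Bala 2 of the 12 were higher and 2 lower with arsenate, where 6.19% and 5.68% of all tested probe sets were. In Azucena 3 were higher and 2 lower, where 10.7% and 10.3% were. The median log2 change of the 12 was -0.28 in Bala and 0.10 in Azucena, and in none did the changes in the varieties differ past limma's threshold (3 of the 12 at an unadjusted p under 0.05). The share of all tested probe sets at that unadjusted threshold was not counted.

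Among further channels that carry arsenite when made in frog oocytes, OsNIP1;1 had signals of 8.7, 16.5 and 24.4 with arsenate in Bala, against 25.5, 14.1 and 6.9 in Bala control. In Azucena it had 44.4, 27.8 and 70.3 with arsenate, against 10.9, 4.3 and 11.7 in control. The control signals lay near the array medians, so that the size of a change depends on the pseudocount, and the gene was higher with arsenate in Azucena (2.15 ± 0.51, limma adjusted p = 0.0194), opposite in direction to OsNIP2;1 and OsNIP2;2 there. Its change in Bala was 0.13 (adjusted p = 0.890), and the changes differed by -2.02 ± 0.72 (adjusted p = 0.363). OsPIP2;6, an aquaporin, had 1401.9, 1646.6 and 1456.9 with arsenate in Bala, against 2028.6, 1672.9 and 2770.2 in control. In Azucena it had 900.4, 926.3 and 928.2 with arsenate, against 2881.2, 3160.0 and 3202.6 in control. It was lower in Azucena (-1.74 ± 0.20, adjusted p = 0.0009), and its change in Bala (-0.49) did not pass (adjusted p = 0.140).

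OsPIP2;6 had the same arrangement as OsNIP2;2, a large gap between the Azucena groups and a small one in Bala, and likewise its difference between the varieties did not pass (1.25 ± 0.28, limma adjusted p = 0.136). OsPIP2;4, another aquaporin, was lower with arsenate in Bala (-0.88 ± 0.22, adjusted p = 0.0324) and changed by -0.06 in Azucena. Its signal was much higher in Bala than in Azucena, by 3.13 ± 0.22 log2 units with arsenate and 3.95 ± 0.22 without. OsNIP3;1, OsNIP4;1 and OsPIP2;7 were under the filter and were not tested.

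Of the phosphate transporters, the route by which arsenate enters, OsPht1;2 was lower with arsenate in both varieties. In Bala it had signals of 100.6, 83.1 and 55.9 with arsenate, against 1174.2, 518.1 and 1877.0 in control. In Azucena it had 34.2, 53.4 and 76.8 with arsenate, against 1334.2, 1066.7 and 1557.7 in control. Its log2 change was -3.72 ± 0.43 in Bala (limma adjusted p = 0.0015) and -4.59 ± 0.43 in Azucena (adjusted p = 0.0004), so that it and Lsi2 were both lower in both varieties. OsPht1;1, OsPht1;4, OsPht1;6, OsPht1;8 and OsPHR2, a regulator of the phosphate starvation response, did not pass in either variety. Not passing does not show that a gene was unchanged. OsPht1;4 in Azucena had 184.1, 422.5 and 689.2 with arsenate, against 1751.6, 1805.7 and 1268.9 in control. In Bala it had 330.4, 375.5 and 161.0 with arsenate, against 958.2, 454.3 and 91.6 in control. A dimmer probe set of OsPht1;1 disagreed with the one used: it gave -1.88 in Azucena (adjusted p = 0.0057) and 0.31 in Bala, against -0.38 and -0.73 for the brighter one.

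In the thiol branch, gcs, which encodes the enzyme of the first step of glutathione synthesis, was higher with arsenate by 1.24 ± 0.17 in Bala (limma adjusted p = 0.0030) and 1.56 ± 0.17 in Azucena (adjusted p = 0.0008). OsNramp1, a metal transporter, had 2307.0, 2113.2 and 1812.8 with arsenate in Bala, against 16.2, 9.7 and 132.8 in control. In Azucena it had 864.1, 759.7 and 468.0 with arsenate, against 7.6, 10.9 and 44.7 in control. The highest control signals of OsNramp1 in both varieties were in experiment 3. It passed as higher with arsenate in both varieties (limma adjusted p = 0.0021 in Bala and 0.0027 in Azucena). Its control signals in experiments 1 and 2 lay near the array medians of 7.3 to 10.4, so that the fitted sizes in the plot of the pathway genes depend on the pseudocount and are not measured folds. The glutaredoxin gene annotated as GRXC7 did not pass in either variety.

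Lsi1 and Lsi2 sit in the exodermis and endodermis, and 3 of 6 listed markers of those layers were measured. Their summed signal was 322 to 373 with arsenate in Bala, against 371 to 725 in Bala control, and 287 to 322 with arsenate in Azucena, against 645 to 866 in Azucena control. The sum mostly follows OsCASP1, with group means of 197 to 603, against at most 126 for OsSHR1 and 26.4 for OsSCR1. OsCASP1, which builds the Casparian strip of the endodermis, was lower with arsenate in Azucena (-1.60 ± 0.33, limma adjusted p = 0.0116) and changed by -0.66 ± 0.33 in Bala, which did not pass (adjusted p = 0.234). OsSHR1, a regulator of endodermis formation, was lower in Bala (-0.72, adjusted p = 0.0244) and did not pass in Azucena (-0.50, adjusted p = 0.0607). OsSCR1, its partner, changed by 0.14 in Bala and 0.03 in Azucena and did not pass in either. The part of these cell layers in the changes of Lsi2 and OsNIP2;1 was not tested.

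Markers of the root tip and of dividing cells, where Lsi6 is also made, summed to 1434 to 2020 with arsenate in Bala, against 1666 to 1766 in control, and to 1847 to 2584 with arsenate in Azucena, against 1672 to 1975 in control. Of 6 such genes none passed in Bala by limma's adjusted p, where 6.19% of all tested probe sets were higher. In Bala 1 had an unadjusted p under 0.05, a share not counted over all probe sets, and the changes ran from -0.35 for CycB2;2 to 0.56 for QHB. In Azucena, where 10.7% were higher, 2 were. These were QHB, a gene of the quiescent centre (0.86, limma adjusted p = 0.0417), and a dim gene matched to CycB1;1 (1.17, adjusted p = 0.0132). The control signals of the latter (5.1 to 12.3) lay near the array medians. A brighter gene matched to CycB1;1 did not pass (0.09, adjusted p = 0.778), nor did PCNA, CycB2;1 or CycB2;2. The root marker OsNRT2.3, a nitrate transporter, was lower in Azucena (-1.83, limma adjusted p = 0.0205) and changed by -1.52 in Bala (adjusted p = 0.0562). Its Azucena signals with arsenate (15.2, 6.1 and 13.9) lay near the array medians, so that the size of the change depends on the pseudocount. The name of its probe set also ends in "_x_at". The part of root tip cells, of green tissue and of the GAPDH 3' to 5' ratio in the changes of the 5 genes was not tested.

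Genes whose signals followed each member most closely over the 12 arrays were ranked by Pearson's r on the log2 scale among 2220 named genes. The r values are descriptions, since the arrays fall into 4 groups and share experiments. Lsi2 and OsNIP2;1 had the same 3 nearest genes: OsZIP3, a zinc transporter (r = 0.970 with Lsi2 and 0.946 with OsNIP2;1), OsHsp18.8, a small heat shock protein (0.963 and 0.952), and OsSUS2, a sucrose synthase (0.947 and 0.967). The log2 changes of these genes, which likewise follow from the ranking, were -1.81 in Bala and -1.78 in Azucena for OsZIP3 and -1.33 and -1.69 for OsHsp18.8. OsSUS2 changed by only -0.47 and -0.48 and passed in neither variety (limma adjusted p = 0.102 and 0.0683).

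OsNIP2;2 was followed by other genes: cap2 (r = 0.958), GF14B, a 14-3-3 protein (0.945), and PAL, phenylalanine ammonia-lyase (0.929). Their log2 changes with arsenate, which the ranking chose them for, were -0.58 in Bala and -2.06 in Azucena for cap2, -0.07 and -0.65 for GF14B, and 0.04 and -0.54 for PAL. For OsACR2.1 the nearest were OsBURP16 (r = 0.902), OsZIP6 (0.864) and GRXS5 (0.857), and for OsACR2.2, with its narrow spread, OsOS9 (0.792), RPN-II (0.789) and U2AF65B (0.770). These lists depended on the scaling: with quantile normalization only 1 of the 3 genes was kept for each of OsNIP2;1, OsNIP2;2 and OsACR2.1, and with median centring 1 was kept for OsACR2.1 and 0 for OsACR2.2.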

How the data were processed

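The values are probe set intensity as deposited, which the authors summarised with MAS5 (no version in the submitters' processing notes); they are linear and scaled alike across the 12 arrays, and the scaling was kept. Root RNA (5 ug from 100 mg of root) had been labelled by the one-cycle Affymetrix protocol per the labels' protocols. The 123 control probe sets were left out. Of 57258 others, 22436 were assigned to 1 gene, 95 to several and 34727 to none. Names and gene order came from the platform annotation and from RefSeq's gene table for assembly ASM3414082v1; no coordinate or sequence is given.

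With R 4.3.3 and limma 3.58.1, log2(signal + 2.1) was fitted for the 28461 probe sets whose mean exceeded the median of all signals, 9.4 (2.1 is their 25th percentile). A mean per group and a block per experiment were fitted, with 6 residual degrees of freedom, and p values were adjusted by Benjamini-Hochberg within each contrast. The pairing comes from the series' design, in which a replicate number is 1 experiment. Deviations from group means correlated at a median r of 0.131 over 18 pairs of arrays of the same experiment and -0.0359 over 36 other pairs. The transporters' changes were compared by an exact sign-flip permutation test. The number of arrays limits the precision.

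The 5 genes, the pathway list and the marker lists were chosen with earlier results of these data known. Named genes are the 5 genes, matched genes of the pathway and marker lists, and for each of the 5 the 3 named genes of highest Pearson r. For a gene with several probe sets the one with the highest mean signal was used. Alternatives tried were other pseudocounts, filters and scalings, another variance prior, no block, only the groups compared, and each array or experiment left out.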

Additional observations from a re-analysis of the deposited data

How the results depend on the processing

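Of the settings other than leaving out arrays, those that altered a call were as follows. For OsNIP2;1 with arsenate in Bala, the log2 change passed the threshold with a pseudocount at the 50th percentile (-1.26, limma adjusted p = 0.0390), a higher filter at the 70th percentile (-1.27, 0.0393), with arrays quantile normalized (-1.28, 0.0459), median centring (-1.43, 0.0319) and a trended, robust prior (-1.27, 0.0376), so that 2 of the 5 genes were called in Bala instead of 1. In Azucena OsNIP2;1 did not pass with no filter (-1.43, 0.0738). Between the varieties without arsenate 1 gene instead of 0 passed with the trended, robust prior (OsACR2.1), and with arsenate 0 instead of 1 passed with no filter and with only the groups compared. Without the replicate block, in the paired design used here, no call of the 5 genes changed (Azucena: Lsi2 -2.94, adjusted p = 0.0029; OsNIP2;1 -1.43, 0.0354; OsNIP2;2 -2.24, 0.0008). With arrays or whole experiments left out in turn (15 settings), the genes called numbered 0 to 2 in Bala, 1 to 3 in Azucena, 1 to 3 averaged and 0 to 1 between the varieties with arsenate. The log2 changes then ran in Bala from -3.64 to -2.48 for Lsi2, from -1.76 to -0.79 for OsNIP2;1 and from -0.60 to 0.12 for OsNIP2;2, and in Azucena from -3.27 to -2.66, from -1.80 to -1.19 and from -2.55 to -2.02. The differences between changes ran from -1.74 to -1.56 (Lsi2 minus OsNIP2;1), -2.14 to -1.43 (Lsi2 minus OsNIP2;2) and -0.57 to 0.31 (OsNIP2;1 minus OsNIP2;2), each from 4 pairs, which cannot reach the threshold. Nor can 3 values, as when the varieties were averaged within each experiment, a setting added after seeing the data (-1.66 for Lsi2 minus OsNIP2;1 and -1.78 for Lsi2 minus OsNIP2;2, exact p = 0.25). Another such setting, without the Azucena control and Bala arsenate arrays of experiment 3, gave 0.17 for OsNIP2;2 in Bala and altered no call of the 5 genes. Median centring moved the median change of all tested probe sets to -0.10 in Bala, against 0.06 as reported, and that of the difference between varieties to -0.28, against -0.03, and 36.2% of the probe sets called in Bala were then higher, against 52.1%. Over all probe sets, called numbers were 3379 in Bala, 5989 in Azucena, 9033 averaged and 26 for the difference; with no filter they were 1602, 3102, 5966 and 5, with only the groups compared 1553 in Bala and 3656 in Azucena, and with arrays left out 429 to 3730, 858 to 6539, 3216 to 9407 and 0 to 97. Between the varieties the numbers were 3779 with arsenate and 3914 without, and with arrays left out 1653 to 4138 and 1748 to 4184. Without both arrays of experiment 3 they were 1886 in Bala, 1 for the difference and 2604 between the varieties without arsenate. For the difference, the other settings gave 17 (pseudocount at the 5th percentile) to 138 (at the 50th). No gene of the 5 had a further probe set to try, and the planned search of promoter and protein sequences was not run, since no sequence table was used here. The cause of the altered calls was not tested. The number of probe sets tested differed with the filter, and the number of arrays was smaller when some were left out.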

Other observations

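Lsi2 and OsACR2.2 lie close together on 1 chromosome in the RefSeq gene order of assembly ASM3414082v1, with 6 protein-coding genes between them, although their signals did different things. Lsi2 was lower with arsenate in both varieties (log2 change -3.08 in Bala and -2.94 in Azucena), while OsACR2.2 did not pass (-0.03 and 0.16). Of the 6 genes between them 5 had a tested probe set, and none passed in Bala, where the lowest adjusted p was that of EL2 and 11.9% of all tested probe sets passed. In Azucena, where 21.0% passed, only EL2 did, and it was higher with arsenate (1.38 ± 0.20, limma adjusted p = 0.0026); its change in Bala was 0.33 (adjusted p = 0.318). The genes between them were picked for their place and not by the naming rule.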
